A study of Mus musculus with 6 samples.

Results

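The cytosolic ribosomal protein genes encode the proteins of the cytosolic ribosome. They were taken here as protein-coding mouse genes, chosen by their whole symbol. It had to be Rpl or Rps followed by a number, *Rpsa* or a gene of the P stalk (*Rplp0* to *Rplp2*). The symbol alone chose them, so no measured value entered the choice. The pattern found 78 of the 24016 genes in the table, 44 of the large subunit, 31 of the small subunit and 3 of the P stalk. Symbols with an a, x or l after the number, such as *Rps27l*, were taken in as well. The annotated genes *Rpl3l* and *Rpl10l* match the pattern but were not analysed here, since they have no row in the table. A set of 7 ribosomal protein genes or close relatives whose names fall outside the pattern, such as *Rps3a1* and *Fau*, was described beside them.

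The cells were MC3T3-E1 subclone 4, a preosteoblast line from mouse calvaria, which is 1 clone. They were differentiated for 6 days with ascorbic acid at 50 µg/ml and β-glycerophosphate at 10 mM, and 3 cultures then received vehicle and 3 received corticosterone, a glucocorticoid hormone made by the mouse adrenal gland, at 100 nM over 24 h. The labels list 10 nM calcitriol for both groups, and the passage range stands as 4 to 10 under growth but 6 to 12 under batch. The methods of the study call the replicates of cell experiments independent and biological, and no label gives the passage or day of a single library.

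Ribosomes translate mRNA into protein. Each is built in the nucleolus from ribosomal RNA and a set of ribosomal proteins, which are made in the cytoplasm and imported, and most of which occur as a single copy in each ribosome. The mRNAs of ribosomal proteins are among the most abundant of a cell. They start with a run of pyrimidines, the 5′ terminal oligopyrimidine (TOP) motif, through which the growth-regulating kinase mTORC1 controls their translation. In osteoblasts, which secrete large amounts of collagen, the demand for translation is high.

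The libraries held 16020401 to 25638645 reads on genes, of which 882629 to 1269945 fell on the 78 ribosomal protein genes. Values below are these reads after division by the authors' size factor of the library, called normalized counts. Of 9 osteoblast marker genes, all were detected in every library, and 8 were lower with corticosterone, among them *Runx2*, which encodes a transcription factor of the lineage, with a log2 fold change of -1.16 (SE 0.053, adjusted p = 1.65e-10). Of 12 genes that mark other cell types, 5 had a row in the table, and 4 of these had a normalized count under 31 in every library. The fifth, the cartilage collagen gene *Col2a1*, had 1447, 1131 and 1312 with vehicle and 837, 702 and 692 with corticosterone. A locus annotated as ribosomal RNA (*CT010467.1*) took 0.445%, 0.933% and 0.637% with vehicle and 0.545%, 0.711% and 0.464% with corticosterone, and genes of the mitochondrial genome took 4.52% to 5.18% with vehicle and 5.23% to 5.89% with corticosterone.

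Corticosterone-treated cells devoted a slightly larger share of their gene reads to ribosomal proteins. The 78 genes together took 5.11%, 4.95% and 5.04% with vehicle and 5.46%, 5.28% and 5.51% with corticosterone. The lowest corticosterone library was above the highest vehicle library, so the groups did not overlap. The mean was 5.03% ± 0.0773 (SD, n = 3) in the vehicle group. It was 5.41% ± 0.121 (SD, n = 3) in the corticosterone group. The ratio of these means was 1.08, and a two-sided exact permutation test gave p = 0.1, which is the smallest value that 3 against 3 libraries allow. In each group the library labelled 2 had the lowest share of ribosomal protein reads and the highest share of the ribosomal RNA locus. With that locus and the mitochondrial genes both left out of the total, the share was 5.41%, 5.24% and 5.32% with vehicle and 5.83%, 5.61% and 5.85% with corticosterone, again without overlap, and the part of the locus alone was not tested. Since a share is relative to all other genes of the library, more ribosomal protein RNA per cell and less RNA of other genes cannot be told apart here, nor can a change in every cell and a change in the number of cells of one kind.

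**Figure D1:**
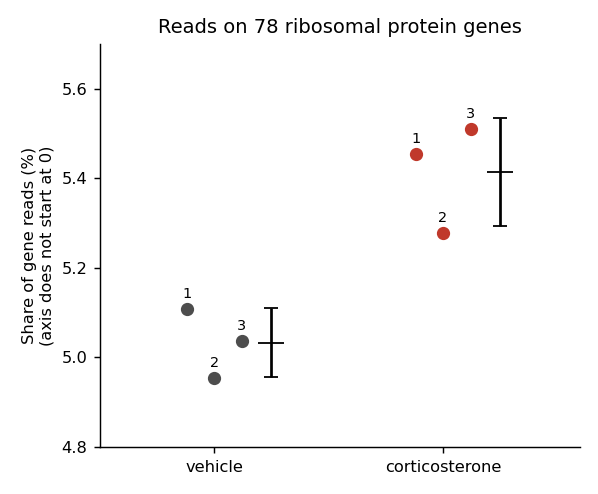
Share of the reads on genes, in percent, that fell on the 78 cytosolic ribosomal protein genes in each library. Points are libraries with their replicate number, and the bar beside them is the mean with its SD (n = 3). The vehicle libraries lie between 4.95% and 5.11% and the corticosterone libraries between 5.28% and 5.51%.

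Gene by gene, 38 of the 78 ribosomal protein genes were significantly higher with corticosterone and 1, *Rpl7a*, was significantly lower (limma on log2(value + 0.1), adjusted p under 0.05 over all 24016 genes). The increases were small. They ranged from a log2 fold change of 0.11 to 0.35, or 8.13% to 27.8% above vehicle, and none of the 78 genes passed the rule of the study, which also asks for an absolute log2 fold change over 1. Of all genes tested, 8.49% were called higher, 8.2% were called lower, and 2.78% passed the rule of the study. At an unadjusted p under 0.05, 57 ribosomal protein genes were higher and 1 was lower, but the share of all genes at this threshold was not counted.

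Most of the family was highly expressed, and all but 3 of the 78 genes had a mean normalized count of at least 1000. Among the 4315 genes with such a mean, 24.1% were called higher and 17.6% lower, whereas 38 of the 75 ribosomal protein genes at that level were called higher. The groups did not overlap, with every corticosterone library above every vehicle library, in 45 of the 78 genes, and in none of the 78 was every corticosterone library below every vehicle library. Over all genes the corresponding shares were 14.7% higher and 14.9% lower, and among genes with a mean of at least 1000 they were 32% and 25.7%.

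In the 77 genes with a mean normalized count of at least 10, the log2 fold change was above 0 in 72 and below 0 in 5, with a median of 0.13, or 9.23% above vehicle. The median was -0.0054 over all 13880 genes at that level. The large subunit (median 0.13, 22 of 44 called higher), the small subunit (0.12, 15 of 31) and the P stalk (0.11, 1 of 3) gave medians close to each other. The 38 genes at that level that were not called had log2 fold changes of -0.14 to 0.21 and a median of 0.10, and 34 of them were above 0.

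**Figure D2:**
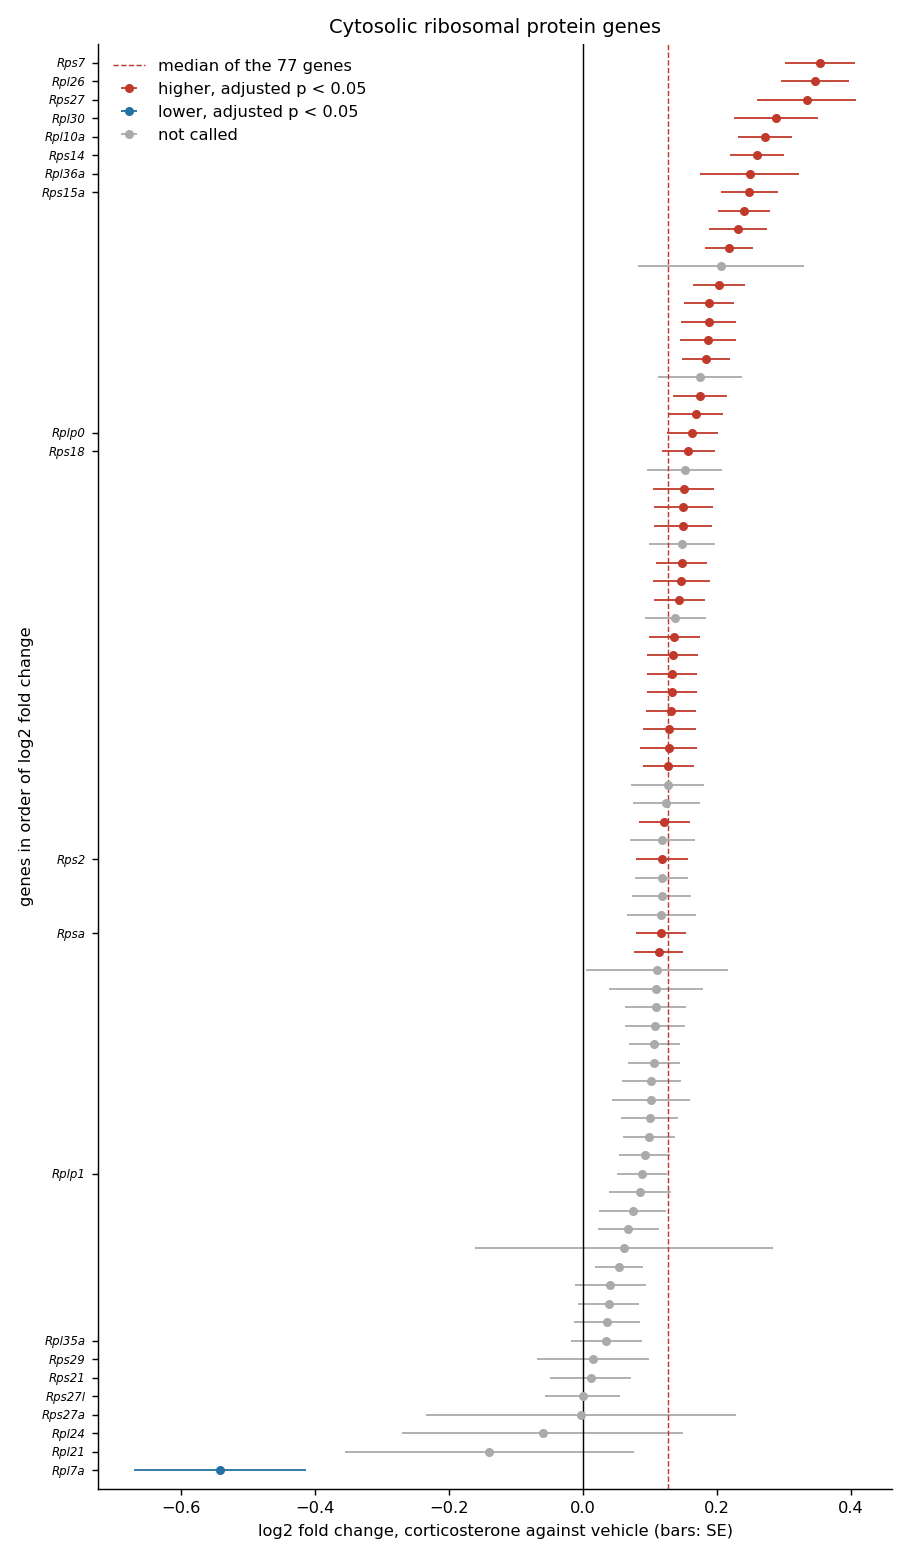
Log2 fold change, corticosterone against vehicle, of the 77 cytosolic ribosomal protein genes with a mean normalized count of at least 10, in order of size, with the standard error of the limma fit as bars (n = 3 libraries per group). The genes with the largest and smallest values and those with the most reads are labelled. Red marks the 38 genes called higher and blue *Rpl7a*, and the dashed line is the median of the 77 genes at 0.13.

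The size of the difference depended on the processing. With a loess correction for GC content and transcript length the median fell to 0.056 and 17 genes were called higher, 16 of them among the 38. With quantile normalization the median was 0.036, with 16 genes called. In a limma fit without a variance trend, which gives every gene the same prior variance, none was called. There, 18 had an unadjusted p under 0.05 and were higher, again without a count over all genes. Of all genes with a mean of at least 1000, 24.1% were called higher in the main fit. That share was 27.7% after the loess correction, 19.9% with quantile normalization and 8.99% without a variance trend. From 38 with all 6 libraries, the count of genes called higher fell to 13 without vehicle library 3, 15 without corticosterone library 3 and 16 without corticosterone library 1. The share called higher among all genes with a mean of at least 1000 was then 17.9%, 18.6% and 19.4%. The annotated transcripts of the 77 genes are short, with a median of 835 bases against 2785 over all genes with a mean of at least 10. Among the 156 other protein-coding genes under 1000 bases and with a mean of at least 1000, the median log2 fold change was 0.049. The all-gene calls were about evenly split, 50.9% of them higher, but with libraries scaled to the same total 40.3% were higher, and the ribosomal protein median was then 0.086 against -0.047 for all genes.

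**Figure D3:**
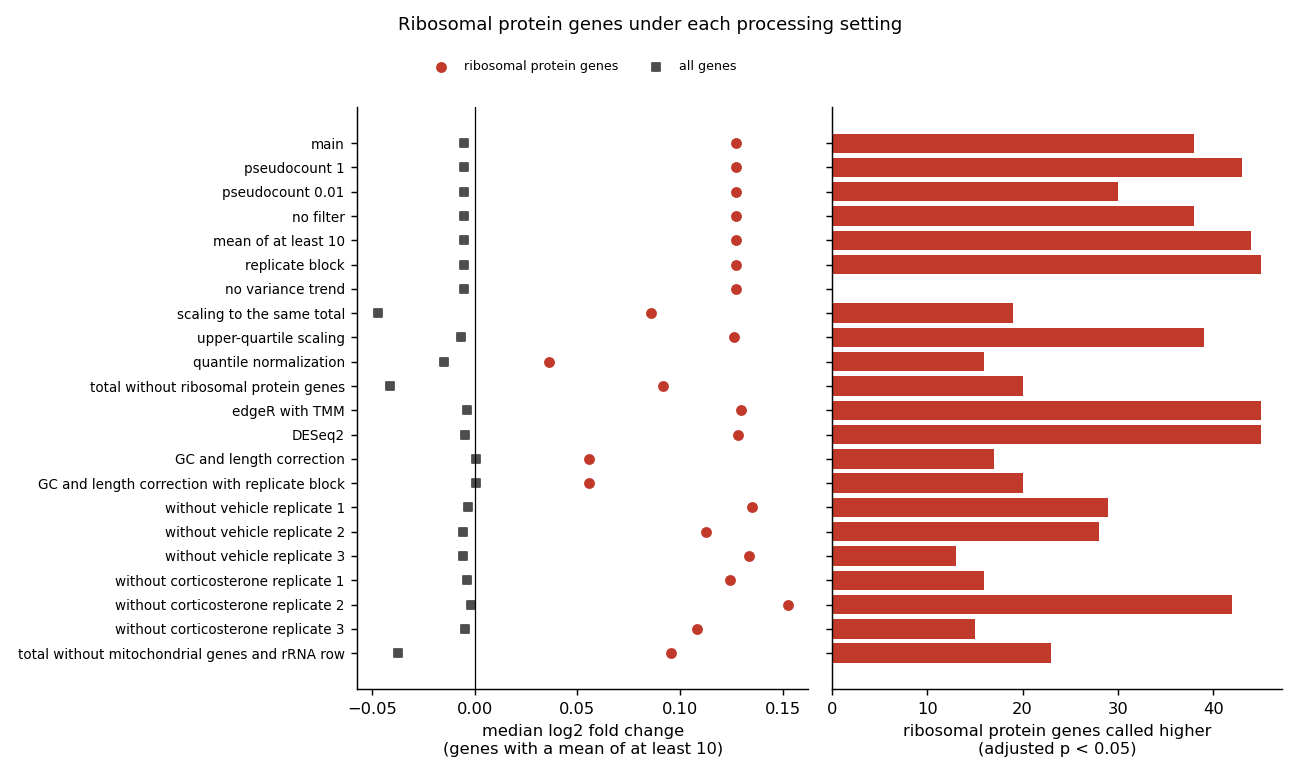
Left, median log2 fold change of the ribosomal protein genes (circles) and of all genes (squares) with a mean of at least 10 under each processing setting. Right, number of the 78 genes called higher, which ran from 0 without a variance trend to 45, while the median of the ribosomal protein genes stayed above that of all genes under each of the 22 settings shown.

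The largest increases were seen in *Rps7*, *Rpl26*, *Rps27*, *Rpl30*, *Rpl10a*, *Rps14*, *Rpl36a* and *Rps15a*. *Rps7* (chromosome 12, 28630854 to 28635953, on the minus strand of GRCm38, 7 exons) encodes a small subunit protein that also binds MDM2, the ubiquitin ligase of p53. Its normalized counts were 18965, 21191 and 17664 with vehicle and 24117, 24439.8 and 25111 with corticosterone. All corticosterone libraries were above all vehicle libraries, and the log2 fold change was 0.35 (SE 0.053, adjusted p = 1.17e-04). *Rpl26* (chromosome 11, 68901583 to 68906989, on the plus strand), a large subunit protein that is known to bind the p53 mRNA, had 13782, 12866 and 13151 with vehicle and 16227, 16000.5 and 18454 with corticosterone. Its log2 fold change was 0.35 (SE 0.05, adjusted p = 9.14e-05), again without overlap.

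*Rps27* (chromosome 3, 90212522 to 90213651, on the minus strand), a small subunit protein, had 8259, 6757 and 8564 with vehicle and 10711, 9014 and 9906 with corticosterone and the groups did not overlap, although vehicle library 2 was well below the other two. The log2 fold change was 0.33 (SE 0.074, adjusted p = 0.0042). *Rpl10a* and *Rps14* were tighter. *Rpl10a*, a large subunit protein, had 13004, 12916 and 13251 with vehicle and 15988, 14967 and 16369.9 with corticosterone, with a log2 fold change of 0.27 (SE 0.04, adjusted p = 1.13e-04). *Rps14*, whose loss in human 5q- syndrome impairs red cell formation, had 19301, 19234 and 18994 with vehicle and 23754, 21675 and 23499 with corticosterone, with a log2 fold change of 0.26 (SE 0.041, adjusted p = 1.92e-04).

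*Rps15a* (chromosome 7, 118104372 to 118116188, on the minus strand) had 9349, 8535 and 8599 with vehicle and 10619, 10195 and 10605 with corticosterone and a log2 fold change of 0.25 (SE 0.042, adjusted p = 4.65e-04). In *Rpl30* the log2 fold change was 0.29 (SE 0.062, adjusted p = 0.00345), without overlap, and in *Rpl36a* it was 0.25 (SE 0.074, adjusted p = 0.028), with the lowest corticosterone library (4272) below the highest vehicle library (4372). *Rpl36a* was called in 1 of 6 fits that left out one library, and not by DESeq2 (adjusted p = 0.132) or after correction for GC content and length (limma, adjusted p = 0.262). Leaving out each library in turn, 11 genes stayed called in all 6 fits, namely *Rps7*, *Rpl26*, *Rpl10a*, *Rps14*, *Rps15a*, *Rps24*, *Rpl34*, *Rpl5*, *Rps3*, *Rpl14* and *Rpl7*. *Rpl5*, which with RPL11 and 5S ribosomal RNA forms the particle that binds MDM2, had a log2 fold change of 0.22 (SE 0.036, adjusted p = 3.39e-04). *Rpl11* itself was not called (log2 fold change 0.15 (SE 0.049, adjusted p = 0.0536)).

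The 5 genes with the most reads, before any division by length, were *Rplp0*, *Rps2*, *Rpsa*, *Rplp1* and *Rps18*. *Rplp0*, which encodes the base of the P stalk that recruits elongation factors, had 75791, 77180.5 and 75517 with vehicle and 85124, 82735 and 88034 with corticosterone. The groups did not overlap, and the log2 fold change was 0.16 (SE 0.039, adjusted p = 0.00663), but with quantile normalization it turned to -0.016. Its partner *Rplp1* had 26213, 26974 and 27671 with vehicle and 28748, 27914 and 29272 with corticosterone, also without overlap, and was not called (log2 fold change 0.088 (SE 0.038, adjusted p = 0.143)). *Rps2* (log2 fold change 0.12 (SE 0.039, adjusted p = 0.0493), but -0.082 with quantile normalization), *Rpsa*, which is also known as the laminin receptor (log2 fold change 0.12 (SE 0.037, adjusted p = 0.043)), and *Rps18* (log2 fold change 0.16 (SE 0.039, adjusted p = 0.00929)) were called higher. *Rps2* and *Rpsa* were each called in 1 of 6 fits that left out one library, as were *Rpl22*, *Rpl19* and *Rpl23a*. *Rpl27*, called higher with all libraries (log2 fold change 0.11 (SE 0.037, adjusted p = 0.0466)), was called in 0 of these 6 fits. After correction for GC content and length its log2 fold change was -0.00058.

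Per kilobase of annotated principal transcript, the vehicle mean ran from 69.7 to 56084 normalized counts, with a median of 12541 over the 77 genes. The middle part of the genes, from the lower to the upper quartile, lay between 6996 and 20202. *Rplp0* (56084) and *Rplp1* (54014) led this order, followed by *Rps18* (43180.0), *Rpl41* (39945) and *Rps2* (38578). The lowest were *Rpl24* (69.7), *Rps10* (209.6), *Rpl13a* (1228) and *Rpl21* (1228). In *Rpl24*, *Rps10* and *Rpl13a*, 47.0%, 20.6% and 29.4% of the exonic bases lie in another annotated gene on the same strand, and the part of that overlap in the low values was not tested. The annotated principal transcript of *Rps15a* has 5179 bases, far more than that of the other genes shown here, which lowers its value per kilobase.

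*Rpl7a* (chromosome 2, 26910764 to 26913318, on the plus strand, 8 exons), a large subunit protein, went against the other genes. It had 7769, 4929.6 and 6532 with vehicle and 5163, 4345 and 3614 with corticosterone. The mean fell from 6410.2 ± 1424 (SD, n = 3) to 4374 ± 775 (SD, n = 3), with a log2 fold change of -0.54 (SE 0.13, adjusted p = 0.00663). The groups overlapped, because vehicle library 2 was below corticosterone library 1, and the two-sided exact permutation test gave p = 0.2. In fits that left out one library it was called in 2 of 6, with log2 fold changes of -0.72 to -0.39, and DESeq2 did not call it (adjusted p = 0.0753). Of its transcript's 31-mers, 87.1% also occur in transcripts of other genes. Of 42 pseudogene rows that share any of these, the 25 that share at least 20% were summed. They came to 1606, 2068 and 2096 with vehicle and 2491, 2361 and 2527 with corticosterone, higher with corticosterone in every library. *Rpl7a* plus these rows came to 9375, 6997 and 8628 with vehicle and 7654, 6706 and 6141 with corticosterone. The difference on the log2 scale was then -0.28, against -0.54 for the *Rpl7a* row alone.

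Some other genes spread so widely between libraries of one group that no direction could be given. *Rps27a*, which is translated as a fusion of ubiquitin and a small subunit protein, had 19841, 16094 and 15718 with vehicle and 22246, 24027 and 9329 with corticosterone. Corticosterone library 3 was the lowest of all 6 and corticosterone library 2 the highest. Without that lowest library the log2 fold change was 0.43 instead of -0.0032. *Rpl21* had 2550.2, 3047 and 1241 with vehicle and 2214, 1994 and 1632 with corticosterone, with vehicle library 3 the lowest and the other two the highest. Its log2 fold change of -0.14 (SE 0.22, adjusted p = 0.744) became -0.53, past the threshold, without that library. *Rps12* (SD of 3029.8 around a corticosterone mean of 12882) and *Rps10* were similar, while in most of the 77 genes the libraries were close, with a median coefficient of variation of 3.13% with vehicle and 4.25% with corticosterone.

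*Rpl17* had 1710.2, 2836 and 4285 with vehicle and 2361, 3739.8 and 2672 with corticosterone, a spread far wider than its log2 fold change of 0.061 (SE 0.22, adjusted p = 0.921). Its 10 pseudogene rows that share at least 20% of its 31-mers spread the opposite way, and their sum with *Rpl17* was 8856, 8323 and 8797 with vehicle and 9850.0, 8929.7 and 10091 with corticosterone. The sum was even within each group and higher in every corticosterone library, a difference of 0.15 on the log2 scale. For *Rps27*, whose transcript is almost wholly shared with the retrogene *Rps27rt*, the sum with such rows was 9637, 9044 and 9411 with vehicle and 11724, 10872 and 12189 with corticosterone, and for *Rps10*, whose row held far fewer reads than that of its pseudogene *Rps10-ps2*, it was 5520.5, 5602 and 5627 with vehicle and 6389, 6356 and 6549 with corticosterone. Both sums kept the groups apart. *Rps27a* and *Rps12* still overlapped between groups after such rows were added. So did *Rpl21*, but the rows added to it had a summed mean of only 29.6, against 2113 for *Rpl21* itself. The row of *Rpl21-ps15*, with a mean of 2557, holds 19.7% of the *Rpl21* 31-mers and fell just under the limit. For *Rpl21* the sum therefore says nothing about its copies. These sums were chosen after the values were seen and were not tested.

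**Figure D4:**
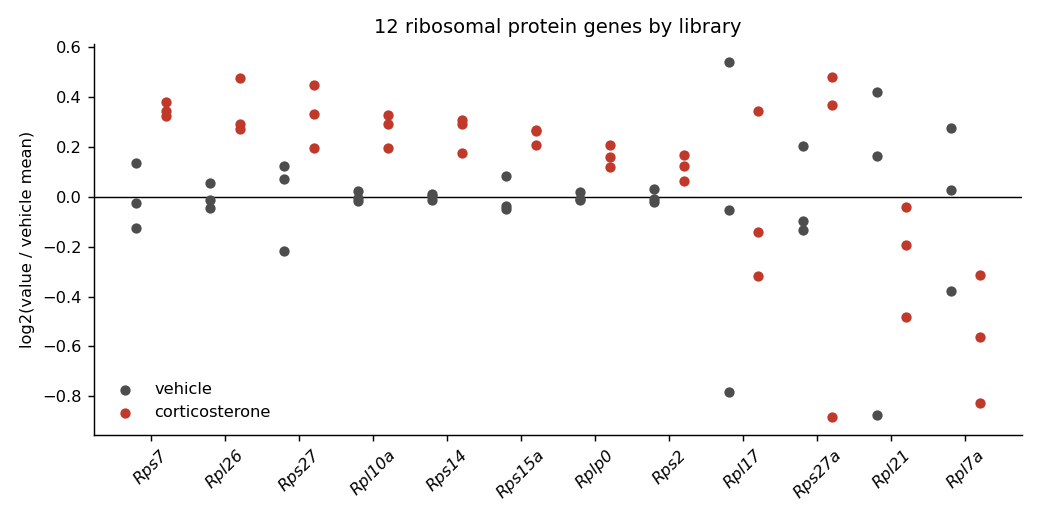
Values of 12 ribosomal protein genes in each of the 6 libraries, as log2 of the normalized count divided by the gene's vehicle mean. The 8 genes on the left keep the corticosterone libraries (red) above the vehicle libraries (grey), whereas *Rpl17*, *Rps27a* and *Rpl21* spread over both groups and *Rpl7a* lies lower with corticosterone.

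Pseudogenes are a general limit for this family, since mammalian genomes hold many processed copies of ribosomal protein mRNAs. Across the 78 genes a median of 57.7% of the 31-mers also occurred in another gene's transcripts, and only 7 genes had under 20% shared. One of these, *Rpl39l*, a copy of *Rpl39* known from male germ cells, had at most 1.54 normalized counts and 0 in 5 libraries, so no fold change was given. The other 6, among them *Rps15a*, *Rps3* and *Rpl8*, held the corticosterone libraries above the vehicle libraries without exception. Their log2 fold changes were 0.11 to 0.25, and all but *Rps20* were called higher. The share was taken over the annotated principal transcript, which has 5179 bases in *Rps15a* and 3706 in *Rps20*. The median over the 77 genes was 835. A long transcript lowers this share, so in genes such as *Rps15a* and *Rps20* a low share need not mean few shared bases. *Rps3*, which lies at the mRNA entry channel and also takes part in DNA repair, had 18335, 18900.3 and 18017 with vehicle and 21409.7, 20406 and 21769.8 with corticosterone and a log2 fold change of 0.20 (SE 0.039, adjusted p = 0.00123).

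Among paralog pairs, *Rps27l*, which is induced by p53, was not called, with 2251, 2313 and 1995 with vehicle and 2146, 2133 and 2267 with corticosterone and a log2 fold change of -0.00074 (SE 0.056), whereas *Rps27* was called higher. *Rpl22* (log2 fold change 0.13 (SE 0.042, adjusted p = 0.0498)) and its paralog *Rpl22l1* (0.19 (SE 0.051, adjusted p = 0.0171)) were both called. *Rps4x* was called (0.13 (SE 0.038, adjusted p = 0.0233)), and the pseudogene *Rps4l* had reads in 1 library alone. *Rpl7* (0.18 (SE 0.036, adjusted p = 0.00154)) was called and *Rpl7l1* (0.086 (SE 0.041, adjusted p = 0.197)) was not. *Rpl36al* stayed under 14 normalized counts in every library and was not called, whereas *Rpl36a* had at least 3623. Among genes named outside the pattern, *Rps3a1* was called (0.15 (SE 0.04, adjusted p = 0.0122)), and *Fau* (log2 fold change 0.066) and *Rps27rt* (0.23) were not.

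Most of the remaining genes at the bottom of the order are short mRNAs of small proteins. *Rps21* (log2 fold change 0.011 (SE 0.061, adjusted p = 0.955)), *Rps29* (0.015 (SE 0.084, adjusted p = 0.957)) and *Rpl35a* (0.034 (SE 0.053, adjusted p = 0.746)) overlapped between groups. *Rpl24* had only 42.2, 48.6 and 50.7 with vehicle and 47.1, 47.5 and 40.9 with corticosterone normalized counts and a log2 fold change of -0.061 (SE 0.21, adjusted p = 0.915).

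The bases around the start of transcription are shown for *Rpl26*, *Rps27* and *Rps15a* of the 8 largest increases. They are also shown for *Rps27l* and *Rpl7a* of the 8 lowest values and for *Rps18* of the genes with the most reads. This sets the pyrimidine run near the start beside the direction in which the mRNA moved. Each window holds 15 bases on either side of the RefSeq start of transcription (GRCm38.p6), taken at the most upstream start where RefSeq has several, written from 5′ to 3′ on the strand of the gene, with its longest run of C and T in capitals.
*Rpl26* (chr11:68901551-68901580, plus strand): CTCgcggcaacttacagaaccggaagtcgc
*Rps27* (chr3:90213634-90213663, minus strand): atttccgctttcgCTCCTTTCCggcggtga
*Rps15a* (chr7:118116133-118116162, minus strand): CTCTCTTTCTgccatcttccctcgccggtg
*Rps18* (chr17:33955651-33955680, minus strand): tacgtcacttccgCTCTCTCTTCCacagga
*Rps27l* (chr9:66946071-66946100, plus strand): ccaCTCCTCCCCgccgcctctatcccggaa
*Rpl7a* (chr2:26910792-26910821, plus strand): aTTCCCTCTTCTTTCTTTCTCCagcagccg
The longest run of these 6 genes, 21 bases across the start, was in *Rpl7a*, the gene called lower. *Rpl26*, with one of the largest increases, had a longest run of 3 bases in its window. That window ends at 68901580, before the GENCODE start of the gene at 68901583, so it does not show how a transcript from that start begins. *Rps27* and *Rps18*, both called higher, held runs of 9 and 11 bases that cross the start. *Rps27l*, which did not pass the test, held a run of 9 bases, and *Rps15a*, called higher, one of 10 bases. Both of these runs lie wholly before the start, so they are not part of the transcript from that start. Of genes whose windows are not printed, the longest run at the most upstream start was 5 to 7 bases in *Rps7*, *Rpl10a* and *Rpl36a* of the largest increases, 2 to 7 in *Rpl24*, *Rps21* and *Rpl35a* of the lowest values and 5 to 6 in *Rplp0*, *Rps2* and *Rpsa*. *Rpl35a* has 3 RefSeq starts, and its longest run over these was 13 bases.

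RefSeq promoters were at hand for 58 of the 78 genes. Some have several RefSeq starts, and a gene was counted here if any of its starts held the run or motif. A run of at least 7 pyrimidines within 15 bases of a start was found in 33 of 58 (56.9%) of them and in 21.3% of the 27025 genes with a promoter. It was found in 16 of 29 (55.2%) of those called higher and in 16 of 28 (57.1%) of those not called. In the promoter from 250 bases before to 50 after a start, on either strand, CCGGAAG, a core of the sites bound by ETS factors such as GABP, was found in 25 of 58 (43.1%), against 9.93% of all genes. AAGATGGC, the core of YY1 sites, was in 5 of 58 (8.62%), against 3.19%, and TATAAA in 6 of 58 (10.3%), against 15.7%. ACANNNTGT, which covers the inner bases of a glucocorticoid receptor site, was found in 1 of 58 (1.72%), in *Rps13*, which was not called, against 7.90% of all genes. Matches of these letters describe the windows alone.

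Genes that act around the ribosomal proteins were described from lists chosen with earlier results of these data known. Among them were those of ribosome assembly, the nucleolar factors and RNA polymerase I subunits that make and process ribosomal RNA. Of 77 genes, 33 (42.9%) were higher and 0 lower, with a median log2 fold change of 0.16. Of all genes, 8.49% were higher and 8.2% lower, and of genes with a mean of at least 1000, 24.1% and 17.6%. *Rrp1*, a processing factor of the large subunit, had 6419, 5649 and 6068 with vehicle and 8526, 8176 and 8863 with corticosterone, with a log2 fold change of 0.50 (SE 0.048, adjusted p = 1.16e-06). *Polr1a*, the largest subunit of RNA polymerase I, had 2077, 1906 and 2117 with vehicle and 2678, 2651 and 2674 with corticosterone, with a log2 fold change of 0.39 (SE 0.048, adjusted p = 1.55e-05). Other members were *Gnl3*, which encodes nucleostemin (log2 fold change 0.48 (SE 0.067, adjusted p = 6.26e-05)), *Nop2*, a ribosomal RNA methyltransferase (0.38 (SE 0.047, adjusted p = 1.72e-05)), and *Rrs1* (0.42 (SE 0.058, adjusted p = 6.07e-05)). In all of these the groups did not overlap, and they were named because they had the lowest adjusted p of the list. Of 5 chaperones dedicated to single ribosomal proteins, *Bccip* was higher (0.21 (SE 0.064, adjusted p = 0.0305)).

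Of 17 mRNAs that carry a TOP motif and encode no ribosomal protein, 8 (47.1%) were higher and 1 (5.88%) was lower, with a median log2 fold change of 0.13. The shares over all genes were 8.49% and 8.2%, and among genes with a mean of at least 1000 they were 24.1% and 17.6%. *Pabpc1*, the cytoplasmic poly(A)-binding protein, had 25023, 24876 and 24840.0 with vehicle and 32093, 31786 and 32039 with corticosterone, with a log2 fold change of 0.36 (SE 0.035, adjusted p = 1.05e-06). *Rack1*, a scaffold on the small subunit, rose by 0.26 on the log2 scale (adjusted p = 1.13e-04), *Eef1a1*, which brings tRNAs to the ribosome, by 0.22 (adjusted p = 4.93e-04), *Eif3h* by 0.23 (adjusted p = 4.35e-04) and *Tpt1* by 0.23 (adjusted p = 5.47e-04). The lower gene was *Hnrnpa1* (-0.13 (SE 0.038, adjusted p = 0.0264)). Of 33 translation factors, 10 (30.3%) were higher, led by *Eif1a* (0.49 (SE 0.054, adjusted p = 4.99e-06)) and *Eif5* (0.32 (SE 0.052, adjusted p = 2.84e-04)), and *Eif1* was lower (-0.14 (SE 0.04, adjusted p = 0.0247)).

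The mitochondrial ribosome has its own proteins, encoded by the nuclear *Mrpl* and *Mrps* genes. Of 77 such genes, 7 (9.09%) were higher and 2 (2.60%) lower, against 8.49% and 8.2% of all genes. Their median log2 fold change was 0.042, and together they took 0.248% to 0.262% of the reads with vehicle and 0.256% to 0.259% with corticosterone. *Mrpl12* (0.25 (SE 0.048, adjusted p = 0.00121)) and *Mrpl34* (0.33 (SE 0.066, adjusted p = 0.00206)) were the clearest of the higher genes, and *Mrpl48* (-0.21 (SE 0.065, adjusted p = 0.0405)) and *Mrpl39* (-0.24 (SE 0.079, adjusted p = 0.044)) were lower. None of 9 genes for factors that bind ribosomal protein promoters, among them *Gabpa*, *Yy1* and *Sp1*, was called by limma, none had an unadjusted p under 0.05, and their log2 fold changes ran from -0.16 to 0.11.

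Of 28 genes of mTORC1 and of the control of TOP mRNAs, 4 (14.3%) were higher and 5 (17.9%) lower, with a median log2 fold change of -0.018. Of all genes, 8.49% were higher and 8.2% lower, and of genes with a mean of at least 1000, 24.1% and 17.6%. *Deptor*, an inhibitor of mTOR, had 477, 379 and 489 with vehicle and 1989, 2081 and 2179 with corticosterone, with a log2 fold change of 2.22 (SE 0.081, adjusted p = 1.12e-11). *Ddit4*, which encodes the mTORC1 inhibitor REDD1, had 6535, 6218 and 6210.2 with vehicle and 11849.9, 11620.2 and 13380.2 with corticosterone, with a log2 fold change of 0.96 (SE 0.05, adjusted p = 7.21e-10). *Myc*, a transcription factor that drives ribosome production, was higher as well (0.50 (SE 0.052, adjusted p = 2.47e-06)), as was *Eif4ebp1*, a repressor of cap-dependent translation (0.33 (SE 0.067, adjusted p = 0.00221)). The lower genes were *Sesn3* (-0.87 (SE 0.047, adjusted p = 1.23e-09)) and *Sesn2* (-0.33 (SE 0.062, adjusted p = 0.00103)), which restrain mTORC1, *Eef2k*, the kinase that slows elongation (-0.43 (SE 0.054, adjusted p = 1.82e-05)), *Pdcd4*, an inhibitor of the helicase eIF4A (-0.37 (SE 0.055, adjusted p = 1.01e-04)), and *Tsc2* (-0.14 (SE 0.045, adjusted p = 0.0455)). Of 8 targets of p53, which free ribosomal proteins can stabilize, 3 (37.5%) were lower, *Cdkn1a* (-0.37 (SE 0.065, adjusted p = 6.31e-04)), *Trp53inp1* and *Eda2r*, and none was higher.

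**Figure D5:**
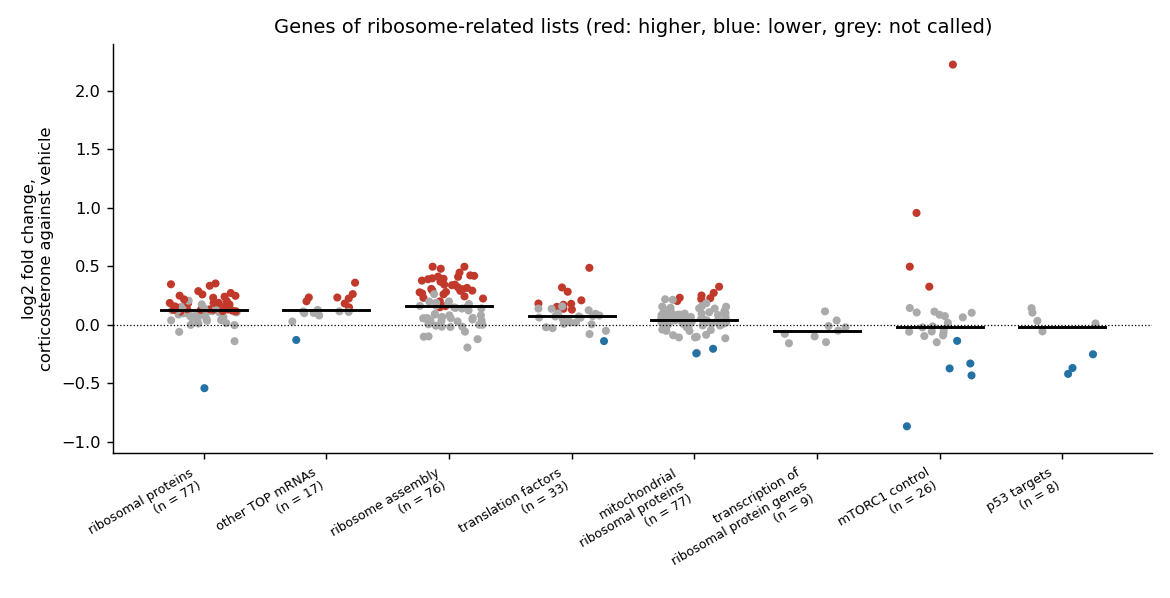
Log2 fold change, corticosterone against vehicle, of the genes of each list with a mean normalized count of at least 10, with red for genes called higher, blue for lower and grey for not called. The black bar is the median of the list, and the dotted line is the median of all genes. The medians of the ribosomal proteins (0.13), other TOP mRNAs (0.13) and ribosome assembly (0.16) lie above that of the mitochondrial ribosomal proteins (0.042), and *Deptor* is the highest point.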

How the data were processed

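RNA was sequenced on an Illumina platform, and the processing notes name mm10. The aligner, counter, annotation and use of strand are not given in the sources used here. The authors deposited 1 table of signal values per gene and library, named FPKM. Its values are whole multiples of 1 step per library (100% within 0.01 read), so they are reads divided by a size factor, and the inverse of each step equals the library's median-of-ratios size factor. A gene with 3 reads, the floor, has a value of 2.32 to 3.84, for counting error only.

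The design assumed FPKM and was kept. limma 3.58.1 (R 4.3.3, lmFit and eBayes with a variance trend) was fitted to log2(value + 0.1) of all 24016 genes, so fold changes of low genes are understated, with Benjamini-Hochberg adjustment. The filter, a mean of at least 0.1, removed no gene. The study's rule was an adjusted p under 0.05 with an absolute log2 fold change over 1. On the recovered reads, edgeR 4.0.16 (quasi-likelihood, TMM) called 2219 genes higher and 2108 lower, and DESeq2 1.42.0 1904 and 1730. Other alternatives were pseudocounts of 1 and 0.01, filters, a replicate block, scalings, a GC and length loess (span 0.5) and leaving out each library. Fits were tested on simulated data. No 2 libraries agreed within sampling noise.

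Annotation was GENCODE M21 (GRCm38), and starts came from RefSeq. Shared sequence was gauged by 31-mers on either strand. Genes and lists were chosen with earlier results of these data known. Any member could be named, and described most fully were the 8 highest and 8 lowest log2 fold changes at a mean of at least 10, the top 5 by value, members called against the median and paralog pairs. Of other lists, up to 5 called genes per direction with the lowest adjusted p were named. Python 3.11.15, pandas 2.3.3 and matplotlib 3.10.9 were used.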

Additional observations from a re-analysis of the deposited data

How the results depend on the processing

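The 38 ribosomal protein genes called higher became 0 without a variance trend, 16 with quantile normalization, 20 with scaling to the total without ribosomal protein genes, 19 with scaling to the same total, 17 after correction for GC content and length, 20 with that correction and the replicate block, and 23 with scaling to the total without mitochondrial genes and the ribosomal RNA locus, an alternative chosen after seeing the data. Leaving out single libraries gave 13 to 42, lowest without vehicle library 3 (13), corticosterone library 3 (15) or corticosterone library 1 (16). Among all genes with a mean of at least 1000, the share called higher ran from 8.99% without a variance trend to 27.9% with the correction and replicate block. With single libraries left out it was 17.9% to 23.1%. With all libraries, 5 of the 6 expressed genes with under 20% of their 31-mers shared were called higher and 0 lower. The single lower gene, *Rpl7a*, was lost without a variance trend (0 genes called lower), by DESeq2 (0) and without vehicle library 1, vehicle library 3, corticosterone library 2 or corticosterone library 3. With single libraries left out, the number called lower was 0 to 1, and the 1 called without vehicle library 3 was *Rpl21*. edgeR called 45 higher, 38 of them among the 38, and DESeq2 45. The median log2 fold change of 0.13 moved to 0.036 with quantile normalization and to 0.056 after correction for GC content and length, with or without the replicate block, and lay between 0.11 and 0.15 with single libraries left out. The cause of these differences was not tested.

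Shares with vehicle and corticosterone were 0.394% and 0.427% for the genes with under 20% of their 31-mers shared. They were 5.23% and 5.63% with the genes outside the pattern and 5.80% and 6.18% without the top 10 genes in the total. Without mitochondrial genes and the ribosomal RNA locus they were 5.32% and 5.76%. Each of these changes what is summed, and the corticosterone mean was the higher in each. Leaving out single libraries gave 5.00% to 5.07% and 5.37% to 5.48%.

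Over all genes, 873 were higher and 760 lower without a variance trend, and single libraries left out gave 1419 to 1873 higher and 1148 to 1611 lower. Over the ribosome-related lists the 65 higher and 12 lower calls became 12 and 3 without a variance trend, and 40 to 65 and 5 to 9 with single libraries left out, fewest without vehicle library 3 or corticosterone library 1. Of 882 combinations of 42 single genes and 21 alternatives, 783 kept direction and side of the threshold and 95 lost the call. The log2 fold change of *Rps27a* ran from -0.25 without corticosterone library 2 to 0.43 without corticosterone library 3, and it turned to -0.016 in *Rplp0* and -0.082 in *Rps2* with quantile normalization.

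Replicate numbers are shared by the groups, and whether they mark pairs is not known. Deviations of same-numbered libraries correlated at -0.044, 0.0014 and 0.023 over 13880 genes, and not every library correlated best with its own number. With 3 libraries per group these correlations cannot decide whether the libraries were paired. With the replicate block, 45 ribosomal protein genes were called higher, against 38 in the main fit. With 3 libraries per group, no ribosomal protein gene with a log2 fold change between 0 and 0.11 was called with all libraries, and 48 of the 78 share at least 50% of their 31-mers with other genes.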

Other observations

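The neighbours of *Rpl7a* on chromosome 2 were looked at after its value was seen. *Surf1*, the next gene downstream, read from the other strand, had 459.8, 511 and 524 with vehicle and 501, 491 and 565 with corticosterone, and its log2 fold change was 0.059 (SE 0.077, adjusted p = 0.696). *Med22*, on the other strand upstream, had 1902, 1972 and 1948 with vehicle and 1821, 1839 and 1839.6 with corticosterone, with a log2 fold change of -0.082 (SE 0.044, adjusted p = 0.273). *Surf2* was higher (0.23 (SE 0.069, adjusted p = 0.0288)). *Surf4* (-0.034) and *Surf6* (0.029) were not called.

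Rows of processed pseudogenes also moved. *Gm6472*, which shares 31-mers with *Rps7*, had 2316, 2630.4 and 2264 with vehicle and 3343, 3238 and 3285 with corticosterone, with a log2 fold change of 0.46 (SE 0.053, adjusted p = 9.49e-06). *Rps10-ps2*, with 4954, 5045 and 5069 with vehicle and 5744, 5694 and 5954 with corticosterone, had a log2 fold change of 0.21 (SE 0.039, adjusted p = 0.00106), and the groups did not overlap in either row. The row of *Rpl17-ps10* had 4319, 2786 and 1772 with vehicle and 4376, 2314 and 4388 with corticosterone, high where *Rpl17* was low. Genes named as ribosomal protein pseudogenes, 154 rows, took 0.174%, 0.160% and 0.165% with vehicle and 0.187%, 0.172% and 0.191% with corticosterone, and the lowest corticosterone library was below the highest vehicle library.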
